A study of Mus musculus with 416 samples.

Results

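The highest and lowest Dbp levels were compared in striatum from Diversity Outbred mice. Dbp encodes a PAR bZIP transcription factor and is one of the strongly rhythmic outputs of the circadian clock. Libraries were chosen by Dbp level in CPM (a count scaled to a common library total): within each generation label, the 25% with the highest and the 25% with the lowest Dbp. These high-Dbp and low-Dbp libraries made up 49% of the 416 libraries, with 37 of each kind in generation 21, 29 of each in generation 22 and 36 of each in generation 23. The remaining 51%, the middle libraries, were not used in that comparison.

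All 416 libraries came from striatum of J:DO mice, an outbred stock bred from several inbred founder strains in which each animal carries its own mix of founder genomes. None had been given a drug, and the labels give generation and sex but no age. The mice were killed between 8 and 12 in the morning, a window the submitters kept to limit circadian effects, and no killing time per animal is given. Total RNA, depleted of ribosomal RNA, was sequenced, and library totals ran from 20331813 to 77458299 counts with a median of 43516366.

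In the clock, the activators Clock or Npas2 pair with Arntl (Bmal1) and switch on genes through E-box sequences, among them the Per and Cry genes, Nr1d1, Nr1d2 and Dbp. Per and Cry proteins then hold the activators back. Nr1d1 and Nr1d2 (the REV-ERB receptors) repress Arntl and Nfil3 through ROR elements, and Dbp, Tef and Hlf activate genes through D-boxes, where Nfil3 represses. In striatum, as in most tissues, the transcripts of these genes rise and fall over the day.

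Dbp levels are the values that chose the libraries and are given as a description. In generation 21 the lowest, median and highest Dbp levels were 110.9, 117.5 and 159.8 CPM in the high-Dbp libraries and 54.6, 74.7 and 84.7 CPM in the low-Dbp libraries. In generation 22 they were 101.3, 108.97 and 128.2 CPM against 42.6, 69.3 and 78.4 CPM, and in generation 23 they were 88.9, 96.1 and 120.6 CPM against 51.2, 62.9 and 69.3 CPM. Within every generation the groups are apart by construction, and the medians differ 1.57-fold, 1.57-fold and 1.53-fold. The levels run on without a gap at the limits: the nearest middle libraries had 85.01 and 109.7 CPM in generation 21, 79.7 and 101.2 CPM in generation 22, and 69.4 and 88.6 CPM in generation 23.

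**Figure D1:**
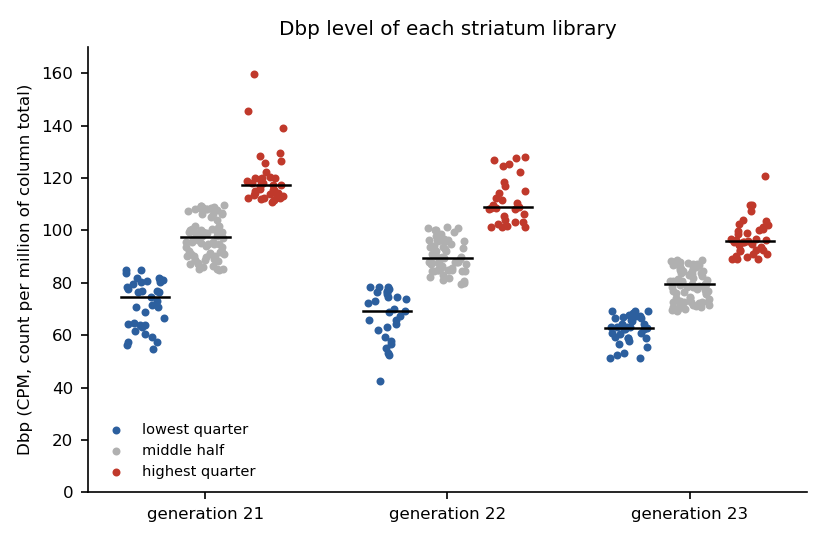
Dbp CPM of each of the 416 libraries by generation, one point per library, with low-Dbp libraries in blue, middle libraries in grey and high-Dbp libraries in red, and a black bar at each median. Group medians lie between 62.9 and 74.7 CPM in the low-Dbp libraries and between 96.1 and 117.5 CPM in the high-Dbp libraries, with no gap to the middle libraries.

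The label of the comparison is clock phase, but no killing time per animal is given, so phase itself was not tested. Tissue content also differed between the groups. The summed level of 10 genes of cortical excitatory neurons ran from 70.1 to 517 CPM (median 104.4) in the high-Dbp libraries and from 69.7 to 1194 CPM (median 281.2) in the low-Dbp libraries. The 10 genes that mark spiny neurons, the principal neurons of the striatum, summed to 8089 to 11650 CPM (median 10309) in the high-Dbp libraries, against 558 to 11560 CPM (median 9051) in the low-Dbp libraries. So the low-Dbp group held more libraries rich in cortical transcripts and some poor in striatal ones, while no marker of either list was at 0 throughout a group. Of the low-Dbp libraries, 16 had a total or a correlation with the other libraries that stood apart, against 2 high-Dbp and 11 middle libraries. Xist, a female marker, went against the labelled sex in 4 high-Dbp, 4 low-Dbp and 21 middle libraries.

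Results are therefore given in 3 forms: with generation as covariate; with 7 marker scores added (cortical, thalamic, choroid plexus, oligodendrocyte, ependymal, fibroblast and blood); and among cortex-poor libraries. The cortex-poor libraries are those below the median cortical score of their generation, in which the 25% with the highest and lowest Dbp were chosen afresh (51 high-Dbp and 51 low-Dbp libraries). There the summed cortical level was 70.1 to 253.7 CPM (median 92.7) in the high-Dbp and 69.7 to 269.04 CPM (median 93.3) in the low-Dbp libraries. The medians over all generations were close, but by generation the cortical score (mean log2 CPM of 9 of these genes) had medians of 0.678 and 0.555 in generation 21, 0.787 and 0.927 in generation 22, and 1.79 in high-Dbp against 2.6 in low-Dbp libraries of generation 23. Dbp itself was at 92.7 to 139.3 CPM (median 113.4) and 54.6 to 89.3 CPM (median 71.8) in these groups. The part of tissue content in the remaining differences was not tested beyond these fits.

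**Figure D2:**
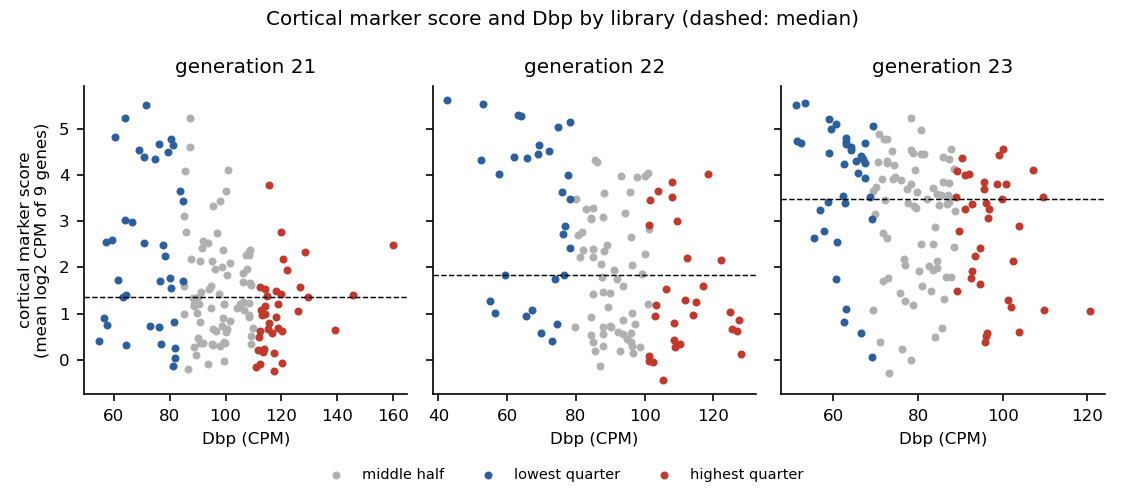
Cortical marker score (mean log2 CPM of 9 cortical genes) against Dbp CPM, one point per library and one panel per generation; the dashed line is the generation's median score, below which lie the cortex-poor libraries. Median scores were 0.996 in high-Dbp and 2.24 in low-Dbp libraries of generation 21, 1.04 and 3.64 in generation 22, and 3.17 and 4.29 in generation 23.

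Across the 22919 genes tested other than Dbp, 3809 genes (16.6%) were higher and 4708 genes (20.5%) lower in high-Dbp libraries by edgeR's quasi-likelihood test at a Benjamini-Hochberg adjusted p under 0.05, which is 37.2% of genes in either direction. Most of these differences were small: the median size over the called genes was 0.142 on the log2 scale, and 2123 exceeded 1.2-fold. With the marker scores, 1769 genes (7.72%) were higher and 2124 genes (9.27%) lower, or 17% in all, and 300 exceeded 1.2-fold. Among cortex-poor libraries 1110 of 22590 genes (4.91%) were higher and 1067 (4.72%) lower, or 9.64% in all. Without the libraries that stand apart, 2945 genes (12.9%) were higher and 3299 genes (14.4%) lower, or 27.3% in all. These shares are the background against which the counts of clock genes and of every other list below are to be read.

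The clock genes other than Dbp were the leading genes of the comparison. All 33 genes of the 5 clock lists were measured, and 13 were higher and 10 lower in high-Dbp libraries, with a median log2 difference of 0.01 against 0.00048 over all genes tested. By the smallest p, 6 of the first 10 genes came from the clock lists with generation as covariate, 7 of the first 10 with the marker scores and 4 of the first 10 among cortex-poor libraries. With the marker scores 13 clock-list genes were higher and 5 lower, and among cortex-poor libraries 10 were higher and 5 lower. These were not all the same genes. Bhlhe40 and Npas2, for example, passed in both of these forms but not with generation alone. Genes of the repressor arm, the REV-ERB receptors and the PAR bZIP factors made up most of the higher genes, and Arntl, Clock and Nfil3 were lower in all 3 forms.

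Among the 8 repressor-arm genes, 6 were higher, none was lower, and the median log2 difference was 0.25. Ciart (ENSMUSG00000038550) encodes CHRONO, a repressor of the CLOCK and BMAL1 pair, and stood at 10.8, 16.4 and 23.6 CPM (lowest, median and highest) in the high-Dbp libraries. In the low-Dbp libraries it stood at 5.83, 10.02 and 18.9 CPM. The ranges overlap, but all high-Dbp libraries lay above the low-Dbp median and 24 lay above the highest low-Dbp library. The difference in Ciart was 1.62-fold (log2 0.70 ± 0.039 SE, edgeR adjusted p = 4.8e-39), the largest among the clock-list genes, and log2 0.74 with the marker scores and 0.68 among cortex-poor libraries. It was similar in each generation, with medians of 17.4 against 10.5 CPM in generation 21, 16.6 against 10.3 CPM in generation 22 and 14.8 against 8.87 CPM in generation 23.

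Per3, the third of the period genes, was at 68.4, 103.7 and 142.9 CPM in high-Dbp libraries and at 54.2, 81.9 and 102.6 CPM in low-Dbp libraries. High-Dbp libraries were above the low-Dbp median in all but 7 cases, and 57 of them were above the highest low-Dbp library, so the overlap was partial. The log2 difference of Per3 was 0.36 ± 0.027 SE (edgeR adjusted p = 2.08e-26), 0.37 with the marker scores and 0.28 among cortex-poor libraries. Per1 and Per2, the light-responsive period genes that are also induced by neuronal activity, differed less clearly. Per1 was at 81.96, 130.9 and 216.04 CPM against 53.8, 113.5 and 172.2 CPM, a log2 difference of 0.21 ± 0.044 SE (edgeR adjusted p = 1.71e-05). Per2 was at 41.4, 83.7 and 137.4 CPM against 27.1, 68.7 and 104.96 CPM, a log2 difference of 0.28 ± 0.054 SE (edgeR adjusted p = 5.86e-06). For Per1 29 and for Per2 28 high-Dbp libraries lay below the low-Dbp median, more than for Per3. With the marker scores 7 of the 8 repressor-arm genes were higher, Per1 and Per2 among them. Among cortex-poor libraries Per1 (log2 0.07, edgeR adjusted p = 0.553) and Per2 (0.10, adjusted p = 0.502) did not pass the test.

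Of the cryptochromes, which repress the activators directly, Cry2 was higher and Cry1 did not pass. Cry2 was at 112.9, 132.4 and 193.4 CPM in high-Dbp and at 93.2, 117.6 and 155.1 CPM in low-Dbp libraries. It was above the low-Dbp median in all but 3 high-Dbp libraries although the ranges overlap widely, with a log2 difference of 0.19 ± 0.016 SE (edgeR adjusted p = 1.89e-22) and 0.16 among cortex-poor libraries. Cry1, whose peak falls later in the day than that of most E-box genes, had medians of 29.4 and 28.7 CPM (log2 0.03, edgeR adjusted p = 0.543). Among cortex-poor libraries Cry1 was lower in high-Dbp libraries (log2 -0.16, adjusted p = 0.00834). Whether the differences of Cry1 and Cry2 are unequal was not tested.

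The repressors Bhlhe41 and Bhlhe40 (DEC2 and DEC1) compete with the activators for E-boxes. Bhlhe41 was at 103.5, 137.96 and 186.1 CPM against 78.04, 108.7 and 152.5 CPM, and all high-Dbp libraries but 1 lay above the low-Dbp median. Its log2 difference was 0.33 ± 0.022 SE (edgeR adjusted p = 6.63e-31), 0.24 with the marker scores and 0.22 among cortex-poor libraries. Bhlhe40 had medians of 44.3 and 41.1 CPM and did not pass with generation alone (log2 0.01, adjusted p = 0.843), but was higher with the marker scores (0.23, adjusted p = 2.06e-06) and among cortex-poor libraries (0.26, adjusted p = 1.18e-05).

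Of the 4 nuclear receptors, both REV-ERB genes were higher. Nr1d1 (ENSMUSG00000020889) was at 67.2, 84.5 and 124.7 CPM in high-Dbp libraries and at 39.9, 64.8 and 117.9 CPM in low-Dbp libraries. Every high-Dbp library lay above the low-Dbp median, while only 1 exceeded the highest low-Dbp library. The log2 difference of Nr1d1 was 0.39 ± 0.029 SE (edgeR adjusted p = 1.85e-26), and larger, at 0.46 and 0.50, with the marker scores and among cortex-poor libraries. Nr1d2 was at 112.2, 166.97 and 203.2 CPM against 93.8, 146.9 and 187.2 CPM, with all but 9 high-Dbp libraries above the low-Dbp median. Its log2 difference was 0.19 ± 0.022 SE (edgeR adjusted p = 3.3e-14), 0.22 with the marker scores and 0.16 among cortex-poor libraries. Nr1d1 is known to overlap a neighbouring gene on the other strand, and whether the counting used strand is not given in the sources used here.

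Rora and Rorb, which activate through the element that the REV-ERBs repress, were lower with generation as covariate (log2 -0.33 and -0.36, edgeR adjusted p = 0.000449 and 1.32e-08). Both are also high in neurons of other regions, Rora in thalamus and Rorb in cortex. With the marker scores neither Rora (log2 -0.02, adjusted p = 0.744) nor Rorb (log2 -0.08, adjusted p = 0.152) passed the test, nor did they among cortex-poor libraries (log2 -0.03 and -0.05).

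Of the 4 activators, 3 were lower and none was higher. Arntl (ENSMUSG00000055116) was at 20.1, 26.6 and 39.9 CPM in high-Dbp libraries and at 20.4, 35.2 and 50.3 CPM in low-Dbp libraries. It was below the low-Dbp median in all but 6 high-Dbp libraries, within overlapping ranges. The log2 difference of Arntl was -0.39 ± 0.035 SE, or 0.762-fold (edgeR adjusted p = 1.8e-19), and -0.48 with the marker scores and -0.44 among cortex-poor libraries. Clock was at 80.5, 147.6 and 170 CPM against 113.4, 158.2 and 174.01 CPM, with all but 15 high-Dbp libraries below the low-Dbp median. Its difference was small, at log2 -0.10 ± 0.018 SE (edgeR adjusted p = 5.23e-07), -0.14 with the marker scores and -0.11 among cortex-poor libraries. Npas2, the partner of Arntl that is abundant in forebrain, had medians of 79.5 and 81.3 CPM and did not pass with generation alone (log2 -0.0024, adjusted p = 0.965), but was lower with the marker scores (-0.13, adjusted p = 0.000144) and among cortex-poor libraries (-0.11, adjusted p = 0.00118). Arntl2 was lower with generation as covariate (log2 -0.27, adjusted p = 0.000636) and did not pass with the marker scores (-0.07, adjusted p = 0.605) or among cortex-poor libraries (0.0038, adjusted p = 0.987).

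**Figure D3:**
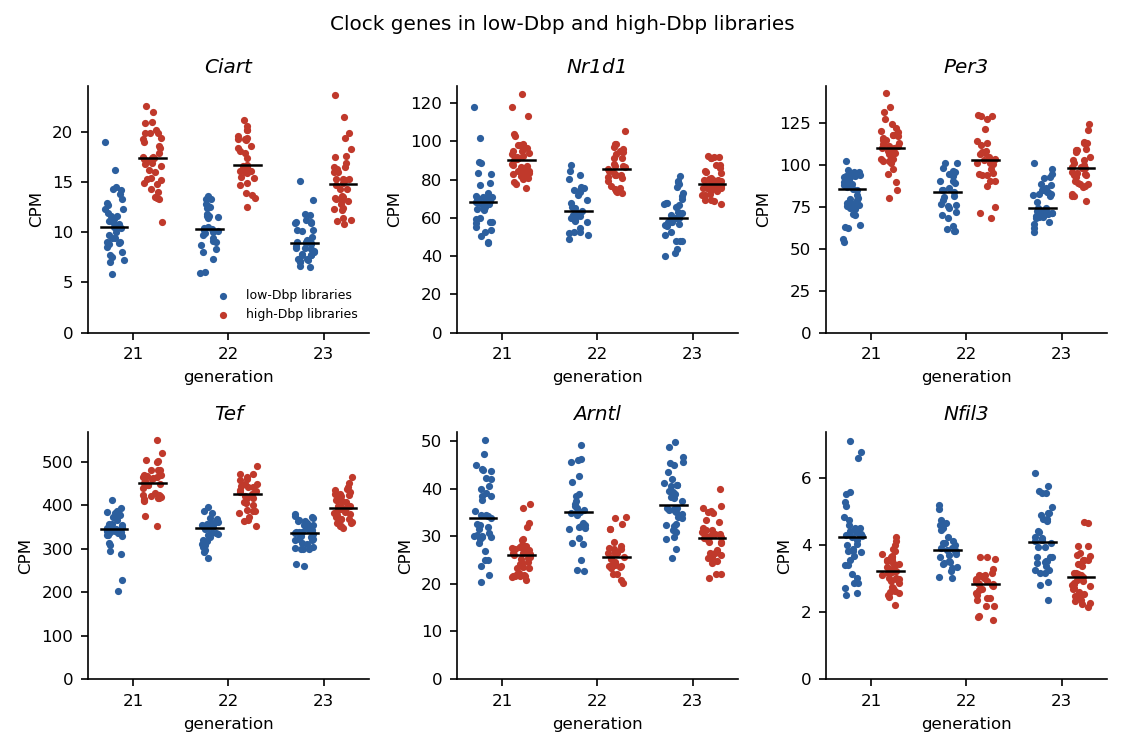
CPM of 6 clock genes in each low-Dbp (blue) and high-Dbp (red) library by generation, one point per library, with a black bar at each median and every axis starting at 0. Ciart, Nr1d1, Per3 and Tef lie higher in the high-Dbp libraries of all 3 generations and Arntl and Nfil3 lower, with overlap in each.

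The other PAR bZIP factors, which share the D-box with Dbp, were both higher, and Nfil3, their opponent at that site, was lower. Tef (ENSMUSG00000022389) was at 348.6, 423 and 550 CPM in high-Dbp libraries and at 203.7, 342.1 and 412.5 CPM in low-Dbp libraries. All high-Dbp libraries lay above the low-Dbp median and 63 above the highest low-Dbp library, the least overlap among the clock genes described here. Its log2 difference was 0.32 ± 0.019 SE (edgeR adjusted p = 2.01e-35), 0.26 with the marker scores and 0.24 among cortex-poor libraries. Hlf was at 193.5, 267.4 and 321.4 CPM against 168.7, 238.8 and 378.3 CPM, with all but 10 high-Dbp libraries above the low-Dbp median and a log2 difference of 0.16 ± 0.023 SE (edgeR adjusted p = 1.93e-09). Nfil3 was scarce, at 1.78, 3.01 and 4.68 CPM in high-Dbp and 2.36, 4.03 and 7.10 CPM in low-Dbp libraries. It was below the low-Dbp median in all but 4 high-Dbp libraries, and 11 were below the lowest low-Dbp library. The log2 difference of Nfil3 was -0.44 ± 0.039 SE (edgeR adjusted p = 2.12e-19), -0.33 with the marker scores and -0.34 among cortex-poor libraries.

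Among 14 kinases and genes of protein turnover, which set the stability of the clock proteins, 3 were higher and 4 lower. Over all genes tested 16.6% were higher and 20.5% lower. The median log2 difference of the 14 genes was -0.01. The clearest was Usp2, a deubiquitinase that acts on clock proteins and is itself rhythmic. It was at 59.6, 73.7 and 105.97 CPM in high-Dbp and at 45.9, 59.2 and 81.3 CPM in low-Dbp libraries, with all high-Dbp libraries above the low-Dbp median. The log2 difference of Usp2 was 0.31 ± 0.018 SE (edgeR adjusted p = 8.93e-38), 0.27 with the marker scores and 0.25 among cortex-poor libraries. Gsk3b, a kinase that phosphorylates several clock proteins, was higher by log2 0.12 ± 0.018 SE (edgeR adjusted p = 2.39e-09), but among cortex-poor libraries it did not pass (0.05, adjusted p = 0.0918). Fbxl21 was higher, and Csnk1d, Csnk1e, Fbxw11 and Prkaa2 lower, with generation alone, and none of these 5 passed with the marker scores or among cortex-poor libraries. The other members lay between log2 -0.02 and 0.04 and did not pass with generation as covariate. Casein kinase genes and most ligases thus gave no difference that held across the 3 forms.

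**Figure D4:**
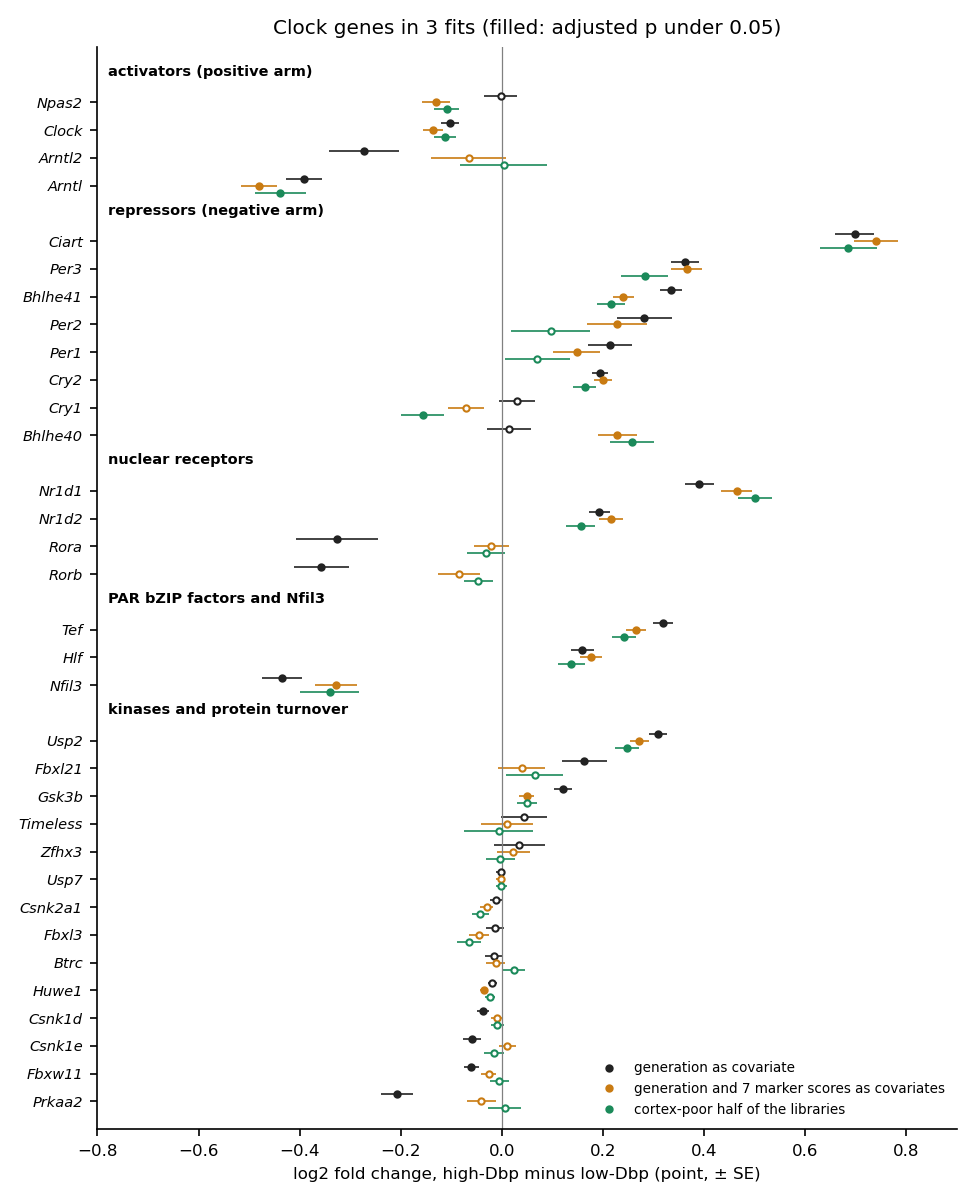
Log2 fold change of 33 clock-list genes between high-Dbp and low-Dbp libraries, with bars of ± SE, in 3 fits: generation as covariate (black), generation and 7 marker scores (orange), and cortex-poor libraries (green). Filled points have an adjusted p under 0.05; Ciart is highest at 0.70 and Nfil3 lowest at -0.44 with generation as covariate, and Rora, Rorb, Arntl2 and Prkaa2 move to near 0 in the other fits.

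Promoter windows of 300 bases (250 before and 50 after the start) from RefSeq, build GRCm38.p6, were searched for the E-box CACGTG, the D-box TTATGTAA or TTACGTAA and the ROR element TAGGTCA, all on both strands. Of 32851 windows, 7.15% hold the E-box, 1.06% the D-box and 2.61% the ROR element. In the windows of Dbp and the named genes, where overlap was checked, no matches of different motifs overlapped. The stretches below are shown because these genes were higher or lower with Dbp and hold a match, given in capitals, on the strand of the gene, 5′ to 3′. They come from chr3:95882258-95882353 (Ciart), chr4:151044810-151044880 (Per3), chr15:81802528-81802558 (Tef), chr12:86947313-86947342 (Cipc), chr7:113207532-113207558 (Arntl), chr13:52981040-52981069 (Nfil3) and chr9:75441449-75441479 (Leo1). Ciart, Per3 and Nfil3 are on the minus strand and the others on the plus strand. Capitals mark E-boxes in Ciart, Tef and Cipc, D-boxes in Per3, and the ROR element (in Nfil3 as its reverse complement) in Arntl, Nfil3 and Leo1.
Ciart: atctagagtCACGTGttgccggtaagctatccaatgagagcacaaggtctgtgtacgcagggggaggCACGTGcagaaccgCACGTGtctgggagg
Per3: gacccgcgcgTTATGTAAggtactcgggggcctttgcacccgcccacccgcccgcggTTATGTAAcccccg
Tef: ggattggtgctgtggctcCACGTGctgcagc
Cipc: ggccgagccgggcCACGTGactggcgaaag
Arntl: ggcagaaagTAGGTCAgggacggaggt
Nfil3: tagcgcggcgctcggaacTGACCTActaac
Leo1: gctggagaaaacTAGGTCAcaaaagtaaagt

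Ciart, with the largest fold among the clock genes, holds 3 E-boxes in its window, and Per3 holds 2 D-boxes. Both clock-list genes with a ROR element, Arntl and Nfil3, were lower in high-Dbp libraries. Of the 12 higher clock-list genes with a window, 4 (33.3%) hold an E-box, 1 holds a D-box and none a ROR element. Of the 9 lower ones 0 hold an E-box and 2 (22.2%) a ROR element. Among clock-list genes not called with generation as covariate, Cry1 holds an E-box and Timeless a D-box. Over the 13732 genes tested that have a window the shares are 10.6% for the E-box, 0.983% for the D-box and 2.34% for the ROR element. Among all genes called higher and lower with generation as covariate, 11.7% and 10.4% hold an E-box and 1.13% and 1.14% a D-box. With the marker scores these shares were 14.0% and 11.3% for the E-box, and 0.915% and 0.914% for the D-box. No match lies in the windows of Dbp, Nr1d1, Nr1d2, Cry2, Hlf, Usp2 or Clock, which says only that these letters are not in these 300 bases.

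Outside the clock lists, Cipc and Rap1gap were among the genes with the smallest p. Cipc encodes a protein that binds CLOCK and inhibits the CLOCK and BMAL1 pair. It was at 91.5, 124.5 and 141.7 CPM in high-Dbp libraries and at 82.6, 107.9 and 123.6 CPM in low-Dbp libraries, with all but 1 of the high-Dbp libraries above the low-Dbp median and 55 above the highest low-Dbp library. The log2 difference of Cipc was 0.21 ± 0.014 SE (edgeR adjusted p = 1.37e-31), 0.18 with the marker scores and 0.16 among cortex-poor libraries. Rap1gap, which switches off the small GTPase Rap1 and is abundant in spiny neurons, was at 284.6, 368.7 and 475 CPM against 125.6, 284.4 and 391.4 CPM. All high-Dbp libraries were above its low-Dbp median, and its log2 difference was 0.36 ± 0.026 SE (edgeR adjusted p = 3.58e-28), 0.27 with the marker scores and 0.25 among cortex-poor libraries.

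The ephrin receptor Epha8 had medians of 20.5 and 13.6 CPM and a log2 difference of 0.53 ± 0.043 SE (edgeR adjusted p = 4.34e-23), and 0.37 among cortex-poor libraries. Ldb1, a cofactor of LIM-domain transcription factors, and Ampd2, an AMP deaminase, were higher by log2 0.17 and 0.19, and by 0.15 and 0.16 among cortex-poor libraries. The following genes were chosen after their values were seen. Camkk1, a kinase that activates calmodulin-dependent kinases, was at 56.1, 66.97 and 84.5 CPM against 42.3, 55.8 and 105.8 CPM, and its log2 difference was 0.23 with generation alone, 0.32 with the marker scores and 0.34 among cortex-poor libraries (edgeR adjusted p = 2.78e-23). Kcnip3, a calcium-binding partner of potassium channels, and the kainate receptor subunit Grik5 were higher by log2 0.34 and 0.25, and by 0.39 and 0.24 among cortex-poor libraries. Slc1a1, the neuronal glutamate transporter EAAC1, was higher by log2 0.18 and by 0.20 among cortex-poor libraries (edgeR adjusted p = 5.33e-11). All of these genes had the same direction among cortex-poor libraries. For the genes chosen after their values were seen, this is no separate check.

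Among lower genes, Leo1, a subunit of the PAF1 transcription elongation complex, was at 11.98, 18.5 and 24.5 CPM in high-Dbp and at 15.8, 21.1 and 27.7 CPM in low-Dbp libraries. It was below the low-Dbp median in all but 10 high-Dbp libraries, with a log2 difference of -0.20 ± 0.021 SE (edgeR adjusted p = 1.79e-15) and -0.19 among cortex-poor libraries. Mapk11, Tagln3 and Khdrbs3 were also among the lower genes with the smallest p, with smaller differences in the other forms. Mapk11, a p38 kinase, was lower by log2 -1.18 with generation alone and -0.16 with the marker scores, and did not pass among cortex-poor libraries (-0.17, adjusted p = 0.284). Tagln3 and Khdrbs3 went from log2 -0.34 and -0.45 to -0.14 for both with the marker scores, and to -0.12 and -0.14 among cortex-poor libraries. Fam124b, chosen after its values were seen, showed the largest log2 differences of the genes named here in the adjusted fits (-1.82 with the marker scores, -2.23 among cortex-poor libraries, edgeR adjusted p = 9.75e-19), at median levels of only 0.0901 CPM in high-Dbp and 0.304 CPM in low-Dbp libraries.

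Of 17 cold-inducible RNA-binding and heat shock genes, a list made up mostly of chaperones, 12 were lower and 2 higher with a median log2 difference of -0.12, and 3 did not pass. Over all genes tested 20.5% were lower. Of the 17, 8 were lower and 2 higher both with the marker scores (median -0.10) and among cortex-poor libraries (median -0.07), where 9.27% and 4.72% of all genes were lower. Hsp90aa1, the inducible cytosolic HSP90, was at 344.4, 629 and 827 CPM in high-Dbp libraries and at 494, 742 and 1018 CPM in low-Dbp libraries. It was below the low-Dbp median in all but 6 high-Dbp libraries, with a log2 difference of -0.26 ± 0.025 SE (edgeR adjusted p = 5.22e-17) and -0.18 among cortex-poor libraries. Hspa8, the constitutive HSC70, was at 658, 976 and 1245 CPM against 851, 1130 and 1567 CPM, a log2 difference of -0.21 (edgeR adjusted p = 1.31e-13) and -0.19 among cortex-poor libraries. Hspa5, the chaperone of the endoplasmic reticulum, was lower by log2 -0.22 and by -0.25 among cortex-poor libraries. The 2 higher genes were those induced by cold: Cirbp had medians of 31.6 and 29.4 CPM (log2 0.12, edgeR adjusted p = 0.00968) and Rbm3 of 63.7 and 57.4 CPM (log2 0.12, adjusted p = 0.00363), and both were higher among cortex-poor libraries too (0.20 and 0.19).

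Of 21 rhythmic output genes of many tissues, a list that also holds Usp2, 7 were higher and 5 lower. Over all genes tested 16.6% were higher and 20.5% lower. The median log2 difference of the 21 genes was -0.00081. Coq10b, of coenzyme Q biology, and Pdxk, which activates vitamin B6, were higher by log2 0.22 and 0.17 (edgeR adjusted p = 4.55e-08 and 8.11e-12). Coq10b did not pass among cortex-poor libraries (0.11, adjusted p = 0.193), while Pdxk did (0.06, adjusted p = 0.0235). Dtx4, a ubiquitin ligase, was lower by log2 -0.41, and by -0.11 among cortex-poor libraries. Tspan4, a tetraspanin, was higher by log2 0.13, by 0.22 with the marker scores and by 0.28 among cortex-poor libraries (adjusted p = 0.000768). The list as a whole was thus split in direction.

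Of 20 immediate early genes, the first genes switched on by neuronal activity, 8 were lower and 2 higher with generation as covariate, 5 were lower and 1 higher with the marker scores, and 7 were lower and none higher among cortex-poor libraries. Of all genes tested 20.5% were lower and 16.6% higher, 9.27% and 7.72% with the marker scores, and 4.72% and 4.91% among cortex-poor libraries. Nr4a3, an orphan nuclear receptor, was at 5.99, 36.5 and 105.97 CPM in high-Dbp and at 10.8, 47.2 and 101.6 CPM in low-Dbp libraries, almost wholly overlapping. Its log2 difference was -0.42 ± 0.10 SE (edgeR adjusted p = 0.000397) and -0.59 among cortex-poor libraries. Fosl2, a Fos-family factor, was at 15.6, 61.1 and 130 CPM against 15.2, 76.1 and 136.5 CPM, a log2 difference of -0.30 ± 0.080 SE (edgeR adjusted p = 0.0011) and -0.53 among cortex-poor libraries. Homer1, a scaffold of glutamate receptors, was lower by log2 -0.10, and by -0.22 among cortex-poor libraries. The median log2 difference of the 20 genes was 0.0277 in generation 21, -0.245 in generation 22 and -0.106 in generation 23. Of 20 glucocorticoid-responsive genes, 7 were lower and 1 higher, but with the marker scores 1 was lower and among cortex-poor libraries none passed. In generations 21, 22 and 23 alone 2, 9 and 0 of them were lower, against 13.3%, 10% and 8.37% of all genes tested. Zbtb16, a glucocorticoid-induced zinc finger factor, had medians of 13.8 and 20.2 CPM and a log2 difference of -0.67 (edgeR adjusted p = 6.62e-09), which was -0.09 with the marker scores (adjusted p = 0.571) and 0.06 among cortex-poor libraries (adjusted p = 0.838).

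Most marker genes of spiny neurons were higher in high-Dbp libraries with generation as covariate, and fewer were in the other forms. In bulk tissue, fewer cells of a type and less RNA per cell cannot be told apart. All 10 genes common to spiny neurons, 5 of 7 of D1 spiny neurons and 6 of 6 measured of D2 spiny neurons were higher with generation as covariate. These counts were 1 of 10, 1 of 7 and 1 of 6 with the marker scores. Among cortex-poor libraries they were 3 of 10, 1 of 7 and 2 of 6. Of all genes tested 7.72% were higher with the marker scores and 4.91% among cortex-poor libraries. Ppp1r1b, which encodes the dopamine-regulated phosphoprotein DARPP-32, was at 829, 1118 and 1634 CPM in high-Dbp and at 13.5, 908 and 1338 CPM in low-Dbp libraries, a log2 difference of 0.38 (edgeR adjusted p = 1.66e-09) that was 0.18 both with the marker scores and among cortex-poor libraries. All 10 cortical genes were lower, with a median log2 difference of -1.78. With the marker scores and among cortex-poor libraries 0 of 10 passed. The cortical score, made from 9 of these genes, is a covariate in the first and chose the libraries in the second. The loss of these differences is therefore largely built in. Slc17a7, the vesicular glutamate transporter of cortical neurons, was at 2.02, 15.9 and 226.8 CPM against 2.52, 106.7 and 649 CPM. Of 8 thalamic genes 7 were lower (median log2 -0.65), 5 without the libraries that stand apart (median -0.15), none with the marker scores and 1 among cortex-poor libraries. The marker scores include a score made from thalamic genes of this list. All 8 were lower in generation 21 alone (median -1.58), against 1 lower and 1 higher in generation 22 and 1 lower in generation 23. Their summed level reached 4451 CPM in 1 low-Dbp library against at most 285.5 CPM in high-Dbp libraries (medians 192.5 and 186.3 CPM). Of the glial and vascular lists, 3 of 9 astrocyte, 1 of 9 oligodendrocyte and 1 of 9 endothelial and mural genes were lower. Higher were 2 of 8 microglial and 2 of 9 endothelial and mural genes, all with generation as covariate. Over all genes tested 20.5% were lower and 16.6% higher in that fit. No blood gene passed. Of the 8 choroid plexus genes none passed over the 3 generations together (median log2 -0.38), but all 8 were lower in generation 21 alone (median -2.12). The 6 measured in each of generations 22 and 23 did not pass (medians 0.64 and 0.47).

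**Figure D5:**
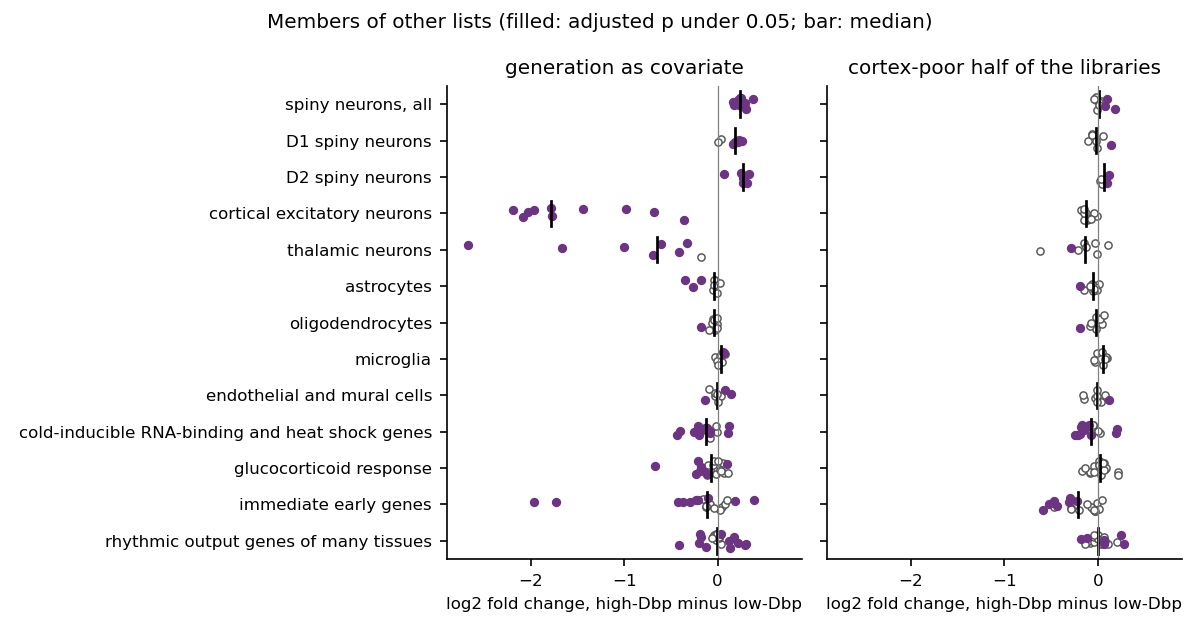
Log2 fold change between high-Dbp and low-Dbp libraries of each member of 13 gene lists, one point per gene, with generation as covariate (left) and among cortex-poor libraries (right); filled points have an adjusted p under 0.05 and the bar is the list's median. The cortical list has a median of -1.78 on the left and -0.12 on the right, while the chaperone list has medians of -0.12 and -0.07.

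The middle libraries, which the comparison of high and low Dbp left out, were fitted with a slope on log2 Dbp. Of 22106 genes, 0.552% rose and 0.778% fell with Dbp, or 1.33% in all. Without the libraries that stand apart, 0.177% rose and 0.0453% fell, or 0.222% in all. Markers of choroid plexus moved with Dbp here: 3 of 8 fell, with a median slope of -5.05 on the log2 scale per doubling of Dbp, which was 6.14 with none passing once the libraries that stand apart were left out. Their part in the result was not tested. Of the 33 clock-list genes 10 rose and none fell, and 7 rose and 1 fell without the libraries that stand apart. The slope was 1.08 ± 0.15 SE for Ciart (log2 per doubling of Dbp, edgeR adjusted p = 1.2e-07), 0.75 for Nr1d1, 0.65 for Bhlhe41, 0.47 for Nr1d2 and Tef, 0.44 for Per3, 0.38 for Hlf, 0.33 for Cry2, 0.30 for Usp2 and 0.25 for Gsk3b. A slope near 1 means that Ciart kept pace with Dbp, and the others changed by less than Dbp did. Arntl had a slope of -0.53 and did not pass (adjusted p = 0.0576), but passed with the marker scores (-0.69, adjusted p = 0.00183), where 97 genes passed in all (0.439%). Cipc and Rap1gap also rose, by 0.43 and 0.64 (edgeR adjusted p = 2.2e-10 and 1.29e-08). Of the genes called among the middle libraries, 72.1% were called in the same direction between high-Dbp and low-Dbp libraries. That is 2.55% of the genes called there, and 2 genes were called in the opposite direction. Over all genes tested 16.6% were higher and 20.5% lower between high-Dbp and low-Dbp libraries. The overlap was not counted without the libraries that stand apart. The middle libraries share no sample with the high-Dbp and low-Dbp libraries.

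The generations, which share no libraries either, gave 3 separate comparisons. Alone, generation 21 called 9.96% of genes higher and 13.3% lower (23.3% in all), generation 22 called 6.4% and 10% (16.4%), and generation 23 called 6.59% and 8.37% (15%). Of 20925 genes tested in all 3, 1.98% were higher and 4.76% lower in each, and with the marker scores 38 were higher and 7 lower in each. Those 38 include the clock-list genes Ciart, Nr1d1, Nr1d2, Per3, Cry2, Bhlhe41, Tef, Hlf and Usp2 together with Cipc, Rap1gap, Camkk1, Slc1a1 and Grik5, and the 7 lower genes include Arntl, Nfil3, Leo1, Hspa8 and the related chaperone gene Hspa4. A test of whether the contrast differed between generations called 1.41% of genes, and of the clock-list genes only Rora was among them (edgeR adjusted p = 0.00203). This test called 19 genes (0.0829%) with the marker scores, and 51 genes (0.223%) without the libraries that stand apart. Labelled females and males, compared separately, gave a log2 difference of 0.63 and 0.76 for Ciart, 0.39 in both for Nr1d1, 0.37 and 0.38 for Per3, and -0.41 and -0.38 for Arntl. The difference between the sexes passed for 2 genes (0.00873%), Cpa6 and the gene model Gm10717, the latter named because the count is so small.

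Dbp lies on chromosome 7, and the 110 annotated genes within 1 Mb of it were followed because animals of this stock share stretches of founder genome. Of the 80 tested, 21 were higher and 15 lower (45%, against 37.2% of all genes tested). With the marker scores 20 were higher and 1 lower, against 7.72% and 9.27% of all genes tested. Among cortex-poor libraries 9 of 78 were higher and none lower, against 4.91% and 4.72% of all genes tested. The brain kinase gene Lmtk3 was at 137.4, 165.7 and 223.02 CPM against 108.1, 147.8 and 194.9 CPM, a log2 difference of 0.17 ± 0.017 SE (edgeR adjusted p = 1.22e-16) and 0.14 among cortex-poor libraries. Lin7b, a synaptic scaffold gene, and the transporter gene Abcc6 were higher by log2 0.16 and 0.34, and by 0.19 and 0.39 among cortex-poor libraries. Sphk2, a sphingosine kinase gene, was higher by log2 0.08, but it overlaps Dbp on the other strand, so that reads of the pair may not be told apart. Founder genotype at Dbp was not tested.

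Labelled females numbered 54 among the high-Dbp and 47 among the low-Dbp libraries (odds ratio 1.31, 95% interval 0.732 to 2.37, Fisher's exact test, two-sided p = 0.401). Mean library totals were 44100000 and 44958000 counts (permutation test within generation, two-sided p = 0.333). The share of mitochondrially encoded counts was 4.67% ± 0.497 (SD) in high-Dbp and 4.49% ± 0.552 (SD) in low-Dbp libraries, a difference of 0.175 percentage points (permutation test, two-sided p = 0.0186). That difference was 0.127 points without the libraries that stand apart (permutation test, p = 0.0897), 0.215 points with Dbp scaled by TMM factors when choosing libraries (p = 0.00538), and was smaller than 1 SD of either group.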

How the data were processed

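RNA was measured in 416 striatum libraries, of which 49% enter the main comparison. The deposited table holds estimated counts per gene for every library. Per the labels' protocols the libraries were ribosome-depleted, stranded and read as paired ends; the aligner, build, annotation and strand of counting are not given in the sources used here. Of the values, 23.8% were not whole, and rounding them moved 0.005% of the total count. Gene IDs were named from GENCODE M21 (98.9% of 46517 matched). Each library has its own number in the labels; where libraries are not separate animals, p-values measure only the spread between libraries.

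Genes were filtered with filterByExpr (minimum count 10) and tested with edgeR 4.0.16 in R 4.3.3 (TMM factors, robust quasi-likelihood test, generation as covariate), with Benjamini-Hochberg adjustment over all genes but Dbp and a threshold of 0.05. Log2 CPM for the marker scores used a prior count of 2. The marker scores left out Rora and Rorb, which are also clock genes; this departs from the plan. DESeq2 1.42.0 and limma 3.58.1 voom were alternatives. Libraries stand apart if their total is under 0.5 times the median or their median correlation with the others lies over 4 scaled median absolute deviations below the median; Xist was read against 100 CPM.

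Genes named are the clock lists, called genes within 1 Mb of Dbp, the 12 per direction with the smallest p and the 8 with the largest change (mean log2 CPM of at least 1, same sign in 3 generations), up to 4 members of each other list and the leading interaction genes; not all are printed, and exceptions are stated. The members and lists were chosen with earlier results of these data known. One item of the planned lists is not reported here. On simulated counts the test recovered 48%, 68%, 92% and 100% of genes changed 1.1-fold, 1.2-fold, 1.5-fold and 2-fold in the high against low comparison (22195 genes), 2%, 8%, 48% and 60% per doubling of Dbp as a slope in the middle libraries (22005 genes), and 6%, 46%, 70% and 90% by the interaction with generation (22195 genes). Real values had been seen before that simulation was run. Promoter windows were matched by symbol for 76.6% of the 299 named genes. Permutation tests drew 100000 resamples within generation.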

Additional observations from a re-analysis of the deposited data

Results flagged for a closer look

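Among the genes named here, the contrast of high-Dbp and low-Dbp libraries differed between generations for 7 by edgeR's interaction test with Benjamini-Hochberg adjustment. Prkcd, a kinase gene that is high in thalamus, had an adjusted p of 6.48e-07, with a log2 difference of -3.74 in generation 21, -0.33 in generation 22 and -0.57 in generation 23. Its levels were 3.03, 5.24 and 25.4 CPM (lowest, median and highest) in high-Dbp libraries and 3.20, 5.37 and 1304 CPM in low-Dbp libraries. Plekhg1 (adjusted p = 6.78e-05) and Tcf7l2 (adjusted p = 0.000113), a transcription factor gene of thalamus, were flagged in the same way, as was Rora (adjusted p = 0.00203; log2 -0.84 in generation 21 and 0.01 in generation 22). The summed thalamic markers reached 4451 CPM in low-Dbp libraries and 285.5 CPM in high-Dbp libraries; their part in these results was not tested.

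Lmtk3 (adjusted p = 0.0077) and Prr12 (adjusted p = 0.0355), both within 1 Mb of Dbp, and Ldb1 (adjusted p = 0.0407) also differed between generations; for Lmtk3 the log2 difference was 0.27, 0.09 and 0.13 in generations 21, 22 and 23. For Cpa6, a carboxypeptidase gene, the contrast differed between labelled sexes (edgeR interaction test, adjusted p = 0.000637), at log2 -0.62 in libraries labelled female and 0.55 in those labelled male.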

How the results depend on the processing

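Ciart, Nr1d1, Per3, Tef, Usp2, Cipc, Cry2 and Bhlhe41 kept their direction and an adjusted p under 0.05 in all 30 alternatives. Arntl and Nfil3 did so in 29 of 30 (both did not pass as a slope in the middle libraries). The log2 value of Ciart ran from 0.61 to 1.08, where 1.08 is the slope per doubling of Dbp in the middle libraries. Of 2161 values from these alternatives for 73 named genes, 1895 kept the call, 220 no longer passed, 24 passed only there and 22 were counted as reversed. The 22 do not hold every change of sign. Timeless, which did not pass, kept its call in all 30 although its log2 value ran from -0.143 to 0.187. The alternatives with a cortical score, cortex-poor or cortex-rich libraries, marker scores in 1 generation or in the middle libraries, or Zbtb16 beside the marker scores were chosen after seeing the data. Shares of genes called moved more. The share called higher, 16.6%, was 9.09% with no filter on low counts (38431 genes tested), 7.72% with the marker scores, 8.11% with Zbtb16, 7.46% with both, 6.69% with the cortical score, 4.91% in cortex-poor libraries, 8.7% in libraries labelled male, 0.552% as a slope in the middle libraries, 9.96%, 6.4% and 6.59% in generations 21, 22 and 23 alone, and 7.2%, 0.399% and 1.16% there with the marker scores. The share called lower, 20.5%, was in the same order 13.3%, 9.27%, 10.8%, 8.89%, 10.4%, 4.72%, 11.8%, 0.778%, then 13.3%, 10% and 8.37%, and 6.03%, 0.263% and 0.635%. Generation, sex and cortex-poor alternatives use fewer libraries. Cortex-rich libraries, with 50 high-Dbp and 50 low-Dbp libraries chosen afresh, gave 13% higher and 16.6% lower. The cortex-poor values of 4.91% and 4.72% come from 51 and 51 libraries. The cause of these shifts was not tested.

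The number of clock-list genes called lower, 10, was 5 with the marker scores, 6 with Zbtb16, 5 with both, 6 without the libraries that stand apart, 6 and 5 in generations 22 and 23, 6 in libraries labelled male, 5 in cortex-poor libraries, 3, 2 and 3 with the marker scores in generations 21, 22 and 23, and 0 in the middle libraries. Genes differing between generations made up 0.223% without the libraries that stand apart and 0.0829% with the marker scores, and genes differing between labelled sexes 0.0219% and 0.00436%. In the middle libraries 0.222% passed without the libraries that stand apart and 0.439% with the marker scores. The difference in mitochondrial share was 0.215 points with TMM-scaled Dbp (p = 0.00538, permutation test), 0.105 with each generation cut in 3 by Dbp (p = 0.103) and 0.127 without the libraries that stand apart (p = 0.0897).

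Some single genes changed sign. In cortex-poor libraries the log2 difference was 0.00382 for Arntl2, -0.157 for Cry1, 0.00589 for Prkaa2 and 0.0577 for Zbtb16. Csnk1e was at 0.0108 with the marker scores, 0.0139 with Zbtb16 added, and 0.074 in the middle libraries. Within generation 21 the marker scores put Csnk1d at 0.0428, Csnk1e at 0.0351, Fbxw11 at 0.0012, Fbxl21 at -0.0978 and Zbtb16 at 0.171. In generation 22 Arntl2 was at 0.0461, Per1 at -0.0178, Rora at 0.0398, Csnk1e at 0.0337 and Prkaa2 at 0.0415, and in generation 23 Rora was at 0.0108. With generation as the only split, Rora was at 0.00546 in generation 22, Csnk1d at 0.00331 in generation 21, and Cpa6 at 0.532 in generation 22 and 0.55 in libraries labelled male. A gene that is part of a covariate has no value in that alternative.

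No paired analysis was possible because the labels give no replicate numbers shared between the groups. Depth limits the scarcest genes, such as Fam124b, and CPM values are shares of each library, so that levels of different genes are not compared here.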

Other observations

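The labels give each animal a number but no killing time. Libraries with adjacent animal numbers differed in Dbp by a median of 0.28 (log2 CPM) in generation 21, 0.248 in generation 22 and 0.199 in generation 23. All pairs of a generation differed by a median of 0.269, 0.259 and 0.248. These are values only, and no order of killing was taken from the numbers.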
